A study of Mus musculus with 32 samples.

Results

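The genes described here are 8 genes of the red cell program, the 7 globin genes Hba-a1, Hba-a2, Hba-x, Hbb-bs, Hbb-bt, Hbb-bh1 and Hbb-y and the heme synthesis gene Alas2. They were chosen by name, matched to Ensembl identifiers through the GENCODE vM21 annotation, and make up 8 of the 55806 identifiers in the 4 count tables. All 8 were listed in each table. RNA-seq had been carried out on mouse kidneys, or on kidney cells sorted by a reporter, in which Cre switched on a mutant allele of Enl (gene symbol Mllt1), a chromatin reader whose YEATS domain carried the tumor mutation T1 or T3.

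The mutant alleles were made in C57BL/6J mice and backcrossed to that strain, and every animal carried a Cre driver, controls included. Six2-TGC tg/+ is a BAC transgene active in nephron progenitors, for which aberrant Six3 expression is known, and Foxd1 GC/+ is a knock-in active in stromal progenitors that disrupts the Foxd1 copy it sits in. For the Six2 lineage, whole kidneys at E18.5 were Six2-TGC tg/+ with Enl +/+ (ENL WT, n = 2), with Enl T1/+ (Six2-ENL T1, n = 2) or with Enl T3/+ (Six2-ENL T3, n = 2). Sorted tdT+ cells, marked by a Cre-activated tdTomato reporter, came from ENL WT and Six2-ENL T1 kidneys at E14.5 (n = 3 each) and at E18.5 (n = 3 each). For the Foxd1 lineage, all at E18.5, whole kidneys were Foxd1 GC/+ with Enl +/+ (ENL WT, n = 3) or Enl T1/+ (Foxd1-ENL T1, n = 3), and sorted tdT+ cells had the same genotypes (n = 4 each). This gave 32 libraries in 11 groups. The labels number the libraries but do not say whether each came from a separate embryo, so the p-values measure the spread between these libraries.

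Hemoglobin is a tetramer of alpha-like and beta-like globin chains, each holding a heme. In the mouse embryo the first red cells arise in the yolk sac and use the embryonic chains Hba-x (zeta globin), Hbb-y (epsilon-y) and Hbb-bh1 (beta-h1), whereas red cells made later in the fetal liver use the adult chains Hba-a1, Hba-a2, Hbb-bs and Hbb-bt. Alas2 is the red cell form of the rate-limiting first enzyme of heme synthesis, and Alas1 serves other cells. The kidney is not a site where red cells are made in the mouse embryo, and it is filled with blood through its vessels. Which cells gave rise to the counts in the sorted libraries was not tested.

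The alpha-like genes lie on chromosome 11 and the beta-like genes on chromosome 7 (GRCm38, GENCODE vM21). On the plus strand of chromosome 11 are Hba-x (chr11:32276400-32278116), Hba-a1 (chr11:32283511-32284465) and Hba-a2 (chr11:32296489-32297298). On the minus strand of chromosome 7 are Hbb-y (chr7:103851749-103853216), Hbb-bh1 (chr7:103841637-103843164), Hbb-bs (chr7:103826534-103828096) and Hbb-bt (chr7:103812524-103813996). Alas2 is on the plus strand of the X chromosome (chrX:150547375-150570638). RefSeq (GRCm38.p6) gave a start site for 7 of the 8 genes, all but Hbb-bh1. The sequence before the start site is printed here for an adult alpha gene, an adult beta gene, an embryonic beta gene and Alas2, so that genes used by definitive and by primitive red cells can be read side by side. Each is written 5′ to 3′ on the strand of its gene, begins 250 bases before the RefSeq start site and stops where the gene begins in GENCODE. The windows are chr11:32296242-32296488 for Hba-a2, chr7:103813997-103814173 for Hbb-bt, chr7:103853217-103853457 for Hbb-y and chrX:150547167-150547374 for Alas2. Capitals mark matches within the printed stretch, on either strand, to GATAA (the core letters bound by GATA factors), to CACCC (the core letters bound by Klf1 and related factors), to the promoter element CCAAT or to the TATA box letters ATATAA.
Hba-a2: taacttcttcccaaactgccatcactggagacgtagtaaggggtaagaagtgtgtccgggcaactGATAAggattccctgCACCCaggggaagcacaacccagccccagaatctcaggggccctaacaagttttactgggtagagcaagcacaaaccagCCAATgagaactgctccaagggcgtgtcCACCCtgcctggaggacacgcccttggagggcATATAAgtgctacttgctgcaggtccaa
Hbb-bt: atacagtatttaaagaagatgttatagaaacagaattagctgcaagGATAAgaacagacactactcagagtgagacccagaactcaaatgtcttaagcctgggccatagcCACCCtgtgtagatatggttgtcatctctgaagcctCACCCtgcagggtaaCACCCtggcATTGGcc
Hbb-y: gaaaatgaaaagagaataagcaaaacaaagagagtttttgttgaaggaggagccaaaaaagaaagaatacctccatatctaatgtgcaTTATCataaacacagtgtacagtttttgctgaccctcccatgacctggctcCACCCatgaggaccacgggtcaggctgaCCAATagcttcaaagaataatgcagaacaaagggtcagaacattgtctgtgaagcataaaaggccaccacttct
Alas2: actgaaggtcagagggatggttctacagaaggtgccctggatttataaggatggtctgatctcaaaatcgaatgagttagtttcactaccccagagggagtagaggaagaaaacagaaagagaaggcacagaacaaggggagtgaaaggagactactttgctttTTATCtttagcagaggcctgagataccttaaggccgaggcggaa

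All 7 windows of 250 bases held GATAA and CACCC on at least 1 strand, and GATAA was in 22.6% and CACCC in 52.0% of 32851 promoter windows of that length. In Hba-a1 GATAA began at -182, in Hba-a2 at -185, in Hbb-bs at -209, in Hbb-bt at -204 and in Hba-x at -107, counted from the start site. Hbb-y and Alas2 held it on the other strand, as TTATC from -162 and -86. CCAAT was found in Hba-a1, Hba-a2, Hbb-bs, Hbb-bt and Hbb-y but not in Hba-x or Alas2, against 33.8% of all windows. ATATAA began between -31 and -28 in the 4 adult genes and Hba-x and was not found in Hbb-y or Alas2, against 9.10% of all windows. The matches of Alas2 to CACCC, and the matches of Hbb-bt nearest its start site, lie past the end of the printed stretches. These matches describe letters, and binding at them was not measured.

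The adult copies are near-identical, which limits how their reads can be divided. Of all 50-base stretches of their annotated transcripts, 72.3% of Hba-a1 and 89.3% of Hba-a2 occur in another gene, mainly the other copy, and so do 53.2% of Hbb-bs and 58.3% of Hbb-bt. At the 75-base read length of the Foxd1 libraries the shares were 67.9%, 84.6%, 51.5% and 56.6%. Hba-x, Hbb-bh1 and Hbb-y shared no such stretch with another gene. Values for single adult copies are therefore uncertain in how they split within a pair. Of the exon length of Alas2, 15.5% overlaps Apex2 or Mir3620, and the counting did not use strand.

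Library totals were 106005614 to 157266455 counts in whole Six2 kidneys, 76510702 to 137888792 in sorted Six2 cells, 67137194 to 79343015 in whole Foxd1 kidneys and 2557443 to 3508381 in sorted Foxd1 cells. A total of 3 counts, the largest that 0 observed counts allows, corresponded to 0.0191 to 1.17 CPM, that is, the count divided by the library total and scaled to parts per 1e6. These limits cover counting error only. Mllt1, the targeted gene, was not called in any of the 6 genotype comparisons. It passed the adjusted p in 3 of them, below the fold threshold, with log2 fold changes of -0.33 in whole Six2-ENL T3 kidneys (edgeR adjusted p = 0.0238), -0.14 in sorted E14.5 cells (edgeR adjusted p = 0.0436) and -0.27 in whole Foxd1 kidneys (edgeR adjusted p = 0.00102). Its counts pool the normal and mutant alleles and so do not check the labels. Sorted Six2 cells held 181 to 240 CPM of Six2 in ENL WT at E18.5 against 38.2 to 44.3 CPM in whole kidneys, and 12 nephron genes summed to 973 to 3550 CPM over all sorted Six2 libraries. In sorted Foxd1 cells 10 stromal genes summed to 6886 to 9404 CPM and the nephron genes to 391.7 to 686 CPM. One library stood apart for the genes described here, ENL WT replicate 1 of the sorted E14.5 cells, which had 125 counts over the 8 genes where the other 2 libraries of its group had 6738 and 14493. Genotype, stage and interaction results that use it are given with and without it.

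Whole ENL WT kidneys at E18.5 held abundant adult globin RNA. In the Six2 table the 8 genes summed to 3739 and 4223 CPM, which was 0.374% and 0.422% of all counts, and in the Foxd1 table to 2481 to 2992 CPM. Levels per kilobase of exon, which allow genes to be compared, ran in the 2 Six2 ENL WT kidneys from 1867 and 2162 CPM per kb for Hba-a1 to 1651 and 1825 for Hbb-bs, 1090 and 1142 for Hbb-bt, 228 and 337 for Hba-a2 and 15.2 and 15.7 for Alas2. No neighbors among these 5 genes overlapped. The embryonic genes lay far below, with 0.238 and 0.393 CPM per kb for Hba-x, 0.0352 and 0.372 for Hbb-y and 0.0121 and 0.0622 for Hbb-bh1, and Hba-x and Hbb-y overlapped, as did Hbb-y and Hbb-bh1. In the 3 Foxd1 ENL WT kidneys Hba-a1 (1414 to 1692 CPM per kb) was again first, but Hbb-bt (1002 to 1242) lay above Hbb-bs (578 to 676) without overlap. The tables were sequenced separately and with different read lengths, so this difference between them was not tested.

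No member was called between genotypes in whole kidneys of the Six2 lineage. Summed over the 8 genes, the T1 libraries held 2401 and 3058 CPM and the T3 libraries 6210 and 3478 CPM, so that T1 lay below ENL WT and the T3 libraries lay on both sides of it. In bulk samples, fewer red cells and less RNA per red cell cannot be told apart. Hba-a1, the largest alpha signal, was 1516 and 1755 CPM in ENL WT, 1074 and 1314 in T1 and 2753 and 1519 in T3. Hbb-bs was 1268 and 1402 CPM in ENL WT, 733 and 983 in T1 and 1882 and 1057 in T3. Alas2 was 36.5 and 37.7 CPM in ENL WT, 24.3 and 26.8 in T1 and 54.7 and 31.7 in T3. For these 3 genes the T1 libraries did not overlap the controls, whereas the T3 libraries spanned a wider range than the other 2 groups. By the quasi-likelihood test of edgeR and Benjamini-Hochberg adjusted p-values, at an adjusted p under 0.05 and a fold over 1.5, 0 of 8 genes were called in T1, where 7.77% of all genes tested were, and 0 of 8 in T3, where 9.62% were. At an unadjusted p under 0.05 the counts were 4 and 0.

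The adult members leaned lower in T1, by -0.53 (SE 0.257) on the log2 scale for Hba-a1, -0.39 (SE 0.318) for Hba-a2, -0.71 (SE 0.260) for Hbb-bs, -0.72 (SE 0.231) for Hbb-bt and -0.61 (SE 0.220) for Alas2, with adjusted p from 0.0838 to 0.516. In T3 the same values were 0.32, 0.47, 0.07, 0.16 and 0.15, and all 5 turned negative without T3 replicate 1. The T1 result depended on which libraries shared the estimate of the spread. With the 4 ENL WT and T1 libraries alone 3 of 8 genes were called, as they were without T3 replicate 1 or without T3 replicate 2. In T3, 1 gene was called without ENL WT replicate 2 (Hbb-y) and 1 without T3 replicate 2 (Hba-a1). Among the embryonic genes Hbb-bh1 stood out by count, with 1 and 6 counts in ENL WT, 22 and 71 in T1 and 7 and 0 in T3, a log2 fold change of 3.85 in T1 (SE 1.14, edgeR adjusted p = 0.0663). Hba-x was 30 and 58 counts in ENL WT, 39 and 42 in T1 and 45 and 23 in T3, and Hbb-y was 3 and 37, 19 and 15, and 22 and 16 counts.

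In whole Foxd1 kidneys the adult globins were slightly lower in T1. Hba-a1 was 1148, 1374 and 1195 CPM in ENL WT and 1092, 1042 and 1049 CPM in Foxd1-ENL T1, so the groups did not overlap. Hba-a2 was 169, 205 and 208 CPM in ENL WT and 164, 144.8 and 151 CPM in T1. Hbb-bs was 444, 519 and 484 CPM in ENL WT and 467, 381 and 395 CPM in T1, with an overlap. The differences were small, with log2 fold changes of -0.24 (SE 0.0688, adjusted p = 0.0174), -0.35 (SE 0.0781, adjusted p = 0.00365) and -0.23 (SE 0.0797, adjusted p = 0.0378) for Hba-a1, Hba-a2 and Hbb-bs by edgeR, below the fold threshold. Hbb-bt (-0.18, adjusted p = 0.117) and Alas2 (-0.16, adjusted p = 0.267) did not pass the adjusted p. Of 5 members tested 0 were called, where 10.2% of all genes were. The 3 embryonic genes, at 0 to 15 counts a library, were too low to test.

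Whether the T1 effect differed between whole kidneys of the lineages was tested as an interaction over 10 libraries, and 0 of 8 members were called, where 8.37% of all genes were. The largest difference among adult members was for Hbb-bt, at -0.53 (SE 0.170, edgeR adjusted p = 0.0744, Six2 minus Foxd1). This count rose to 1 without Six2 ENL WT replicate 1 and to 2 without Six2-ENL T1 replicate 2 or Foxd1 ENL WT replicate 2. It was 2 with DESeq2, 2 with the replicate number as a block and 3 with no low-count filter, with Hbb-bt called in each.

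**Figure D1:**
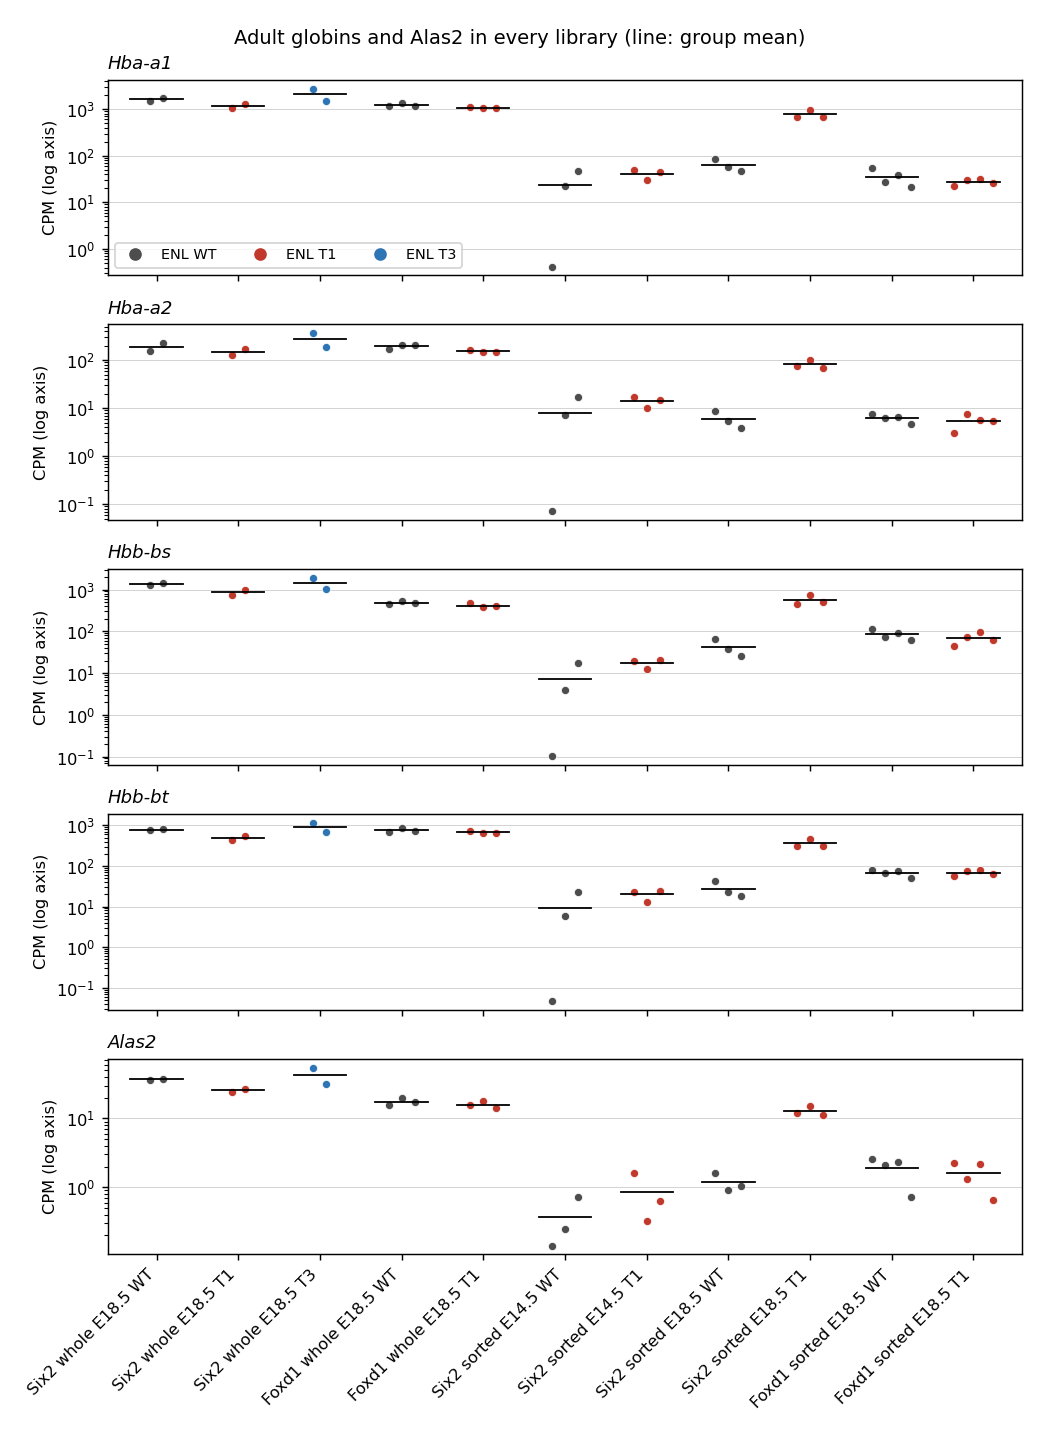
Level of the 4 adult globins and Alas2 in every library, in CPM on log axes, with 1 point per library, the 11 groups along the horizontal axis, colors for the ENL genotype and a line at each group mean. In sorted Six2 cells at E18.5 the 3 T1 libraries lie above the 3 ENL WT libraries for all 5 genes (Hba-a1 from 671 to 969.6 against 46.1 to 84.8 CPM). No gap of that size separates a mutant group from its ENL WT group elsewhere.

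Sorted Six2-lineage cells at E18.5 were the only one of the 6 genotype comparisons in which members were called. The 4 adult globins and Alas2 were higher in Six2-ENL T1 than in ENL WT cells, and for each of them the lowest T1 library lay above the highest ENL WT library. Hba-a1 was 84.8, 56.3 and 46.1 CPM in ENL WT and 687, 969.6 and 671 CPM in T1. Hba-a2, its near-identical partner, was 8.72, 5.47 and 3.96 CPM in ENL WT and 75.3, 98.9 and 70.1 CPM in T1. Both alpha chains thus differed by much more than the spread within either group.

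The beta chains and the heme enzyme followed. Hbb-bs was 63.8, 36.9 and 26.3 CPM in ENL WT and 461, 734 and 497 CPM in T1. Hbb-bt was 41.6, 23.4 and 17.8 CPM in ENL WT and 313, 465 and 312 CPM in T1. Alas2 was 1.59, 0.905 and 1.05 CPM in ENL WT and 11.9, 15.1 and 11.4 CPM in T1. Within T1, replicate 2 was the highest library for all 5 genes, and within ENL WT replicate 1 was.

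As ratios of group means the differences were 12.4-fold for Hba-a1, 13.5-fold for Hba-a2, 13.3-fold for Hbb-bs, 13.2-fold for Hbb-bt and 10.8-fold for Alas2. By the same edgeR test, adjusted over 22685 genes, the log2 fold changes were 3.54 (SE 0.195, adjusted p = 3.94e-08), 3.66 (SE 0.218, adjusted p = 7.93e-08), 3.65 (SE 0.264, adjusted p = 4.51e-07), 3.63 (SE 0.252, adjusted p = 3.01e-07) and 3.34 (SE 0.196, adjusted p = 7.08e-08) in the same order. Of 6 members tested 5 were called higher and 0 lower, where 6.14% of all genes were called higher and 5.54% lower. The median log2 fold change of the tested members was 3.59, and that of all genes tested 0.02. The 5 calls stood without any 1 of the 6 libraries. With each adult pair summed before the fit, an alternative chosen after the data were seen, the alpha pair (3.56), the beta pair (3.64) and Alas2 were called.

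The embryonic genes were at a few counts in these cells. Hba-x had 4, 4 and 0 counts in ENL WT and 17, 16 and 13 counts in T1, without overlap, and a log2 fold change of 2.38 (SE 0.803) that missed the threshold by edgeR's quasi-likelihood test (adjusted p = 0.0540) and passed it by edgeR's exact test (2.38, adjusted p = 0.00550). Hbb-bh1 had 0 counts in all 3 ENL WT libraries and 44, 2 and 1 counts in T1, at least 4.41-fold higher against a floor of 3 counts per ENL WT library. That bound rests on T1 replicate 1, since the other 2 T1 libraries lie below 3 counts. Hbb-y had 0 counts in 5 of the 6 libraries and 10 counts in T1 replicate 2. Hbb-bh1 and Hbb-y were too low to be tested.

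The amount of globin RNA in sorted cells can be set beside that of whole kidneys of the same genotype and stage. The 8 genes summed to 200.5, 123 and 95.2 CPM in sorted ENL WT cells and to 1549, 2283 and 1562 CPM in sorted Six2-ENL T1 cells. The mean of the sorted ENL WT libraries was 3.51% of that of whole ENL WT kidneys, and the mean of the sorted T1 libraries was 65.9% of that of whole T1 kidneys. Gene by gene the share was 3.82% for Hba-a1, 3.21% for Hba-a2, 3.17% for Hbb-bs, 3.51% for Hbb-bt and 3.19% for Alas2 in ENL WT. In T1 it was 65.0%, 53.8%, 65.8%, 72.7% and 50.03%. In the Foxd1 lineage the summed shares were 7.28% in ENL WT and 7.39% in T1. Whole kidneys and sorted cells were prepared with different kits and tissue handling, so no test was made across them.

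**Figure D2:**
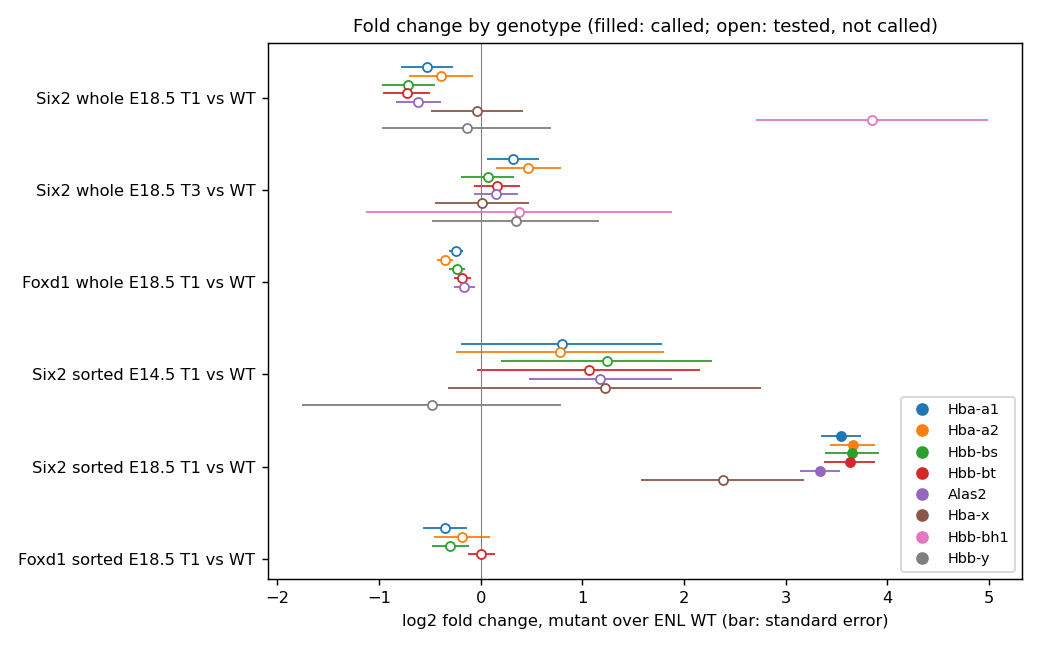
Log2 fold change of each tested member in the 6 genotype comparisons (horizontal axis, mutant over ENL WT, bars for the standard error), with 1 color per gene and filled points for called genes. The filled points, at 3.34 to 3.66, are all in sorted Six2 cells at E18.5, and the other comparisons hold only open points.

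Macrophage and leukocyte markers moved with the globins in the same libraries. The 2 lymphocyte and 2 neutrophil markers that could be tested were not called, and the rest of those lists were too low to test. The 10 macrophage markers, all detected in every library, summed to 35.0 to 38.9 CPM in sorted E18.5 ENL WT cells and to 103 to 119 CPM in Six2-ENL T1. By edgeR 8 of 10 were called higher, with a median log2 fold change of 2.75. Of all genes tested, 6.14% were called higher and 5.54% lower, shares that hold for every list here. Adgre1, the F4/80 antigen, rose from 0.530 to 0.937 CPM to 7.04 to 9.22 CPM, whereas Csf1r, the receptor that marks macrophages, was 11.2 to 16.3 and 16.6 to 20.7 CPM and was not called (log2 fold change 0.36, adjusted p = 0.0754). All 3 leukocyte markers were called higher, with sums of 4.36 to 5.18 CPM and 15.3 to 22.0 CPM. Of 5 platelet markers tested only Pf4, a platelet chemokine also made by some macrophages, was called (log2 fold change 3.16, SE 0.314, edgeR adjusted p = 8.25e-06). The 9 endothelial markers summed to 59.4 to 70.8 CPM and 48.7 to 65.4 CPM, with 0 called higher and 1 lower. Of 2 lymphocyte markers tested 0 were called (Cd79a 0.02 and Cd79b 0.04 on the log2 scale), and the list summed to 4.96 to 6.16 CPM and 5.52 to 7.31 CPM. Of 2 neutrophil markers tested 0 were called (S100a9 2.41, edgeR adjusted p = 0.136), with sums of 0.151 to 1.02 CPM and 0.453 to 6.27 CPM. Of 10 stromal markers 5 were called higher and 3 lower, with sums of 323 to 555 CPM and 832 to 958 CPM. Among these the collagen gene Col1a1 (1.41) and the matrix gene Dcn (1.54) were higher and Foxd1 (-1.93) was lower. The part of these cells in the globin result was not tested.

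Genes of the red cell program outside the 8 did not move as a group. In sorted E18.5 Six2 cells 6.14% of all genes were called higher and 5.54% lower. Of the 8 other heme synthesis enzymes, 0 were called there, with a median log2 fold change of -0.04. Alas1, the form of the first enzyme in most cells, was 22.1 to 27.8 CPM in ENL WT and 26.9 to 27.6 CPM in T1 (log2 fold change 0.01), and Alad, the second enzyme, was 15.2 to 18.7 and 14.6 to 16.0 CPM (-0.22). Of 9 erythroid transcription factors tested, 1 was called higher, Bcl11a, a repressor of embryonic globin genes (log2 fold change 1.56, SE 0.189, edgeR adjusted p = 4.93e-05), and 1 lower, the GATA cofactor Zfpm1 (-0.92, SE 0.126, edgeR adjusted p = 0.000139). Gata1, the factor that defines the lineage, was at or near 0 (0 to 0.0843 CPM in ENL WT and 0 to 0.0109 CPM in T1), and Klf1 was 0.104 to 0.299 and 0.157 to 0.402 CPM (log2 fold change 0.51, adjusted p = 0.606).

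Of 10 genes of the red cell membrane and its skeleton, 2 were called higher, where 6.14% of all genes were, and 1 lower, where 5.54% were. Kel, a blood group antigen, was called higher by 2.23 on the log2 scale (SE 0.424, edgeR adjusted p = 0.00197), and Ank1, erythroid ankyrin, by 1.12 (SE 0.131, edgeR adjusted p = 3.82e-05). Slc4a1, the band 3 anion exchanger, which kidney intercalated cells also make, was 0.747 to 2.62 CPM in ENL WT and 0.797 to 1.84 CPM in T1 (log2 fold change -0.30, adjusted p = 0.693). Slc25a37, the mitochondrial iron importer of red cells, was 31.3 to 39.4 CPM in ENL WT and 34.5 to 35.4 CPM in T1 and was not called (-0.14).

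The erythropoietin receptor and genes of red cell and heme clearance were also read. Epor, the erythropoietin receptor, was 1.40 to 1.82 CPM in ENL WT and 3.95 to 5.04 CPM in T1 (log2 fold change 1.45, SE 0.185, edgeR adjusted p = 7.60e-05). Spic, a transcription factor of macrophages that recycle red cells, was 0.260 to 0.663 CPM and 1.31 to 3.07 CPM (2.17, SE 0.373, edgeR adjusted p = 0.000909). Hmox1, which breaks down heme, went the other way, from 227 to 315 CPM in ENL WT to 99.4 to 107 CPM in T1 (-1.42, SE 0.112, edgeR adjusted p = 9.57e-07).

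At E14.5 the sorted Six2 cells showed no call among the members. The 8 genes summed to 0.988, 48.9 and 114 CPM in ENL WT and to 129.3, 68.6 and 105.8 CPM in Six2-ENL T1, so the groups overlapped. Hba-a1 was 0.419, 22.2 and 47.4 CPM in ENL WT and 50.2, 29.6 and 44.5 CPM in T1. Hbb-bt was 0.0474, 5.89 and 22.4 CPM in ENL WT and 22.7, 12.8 and 24.9 CPM in T1. The spread came mainly from ENL WT replicate 1, in which every adult globin was below 1 CPM.

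Of 7 members tested at E14.5, 0 were called, where 6.4% of all genes were, and 0 passed an unadjusted p under 0.05. The log2 fold changes by edgeR ran from -0.48 (SE 1.28) for Hbb-y to 1.24 (SE 1.04) for Hbb-bs, with adjusted p from 0.346 to 0.866. Leaving out ENL WT replicate 1 moved Hba-a1 from 0.80 to 0.22 and gave 0 calls as well. That replicate also had the fewest macrophage marker counts (21.9 CPM, against 34.6 and 118 CPM in replicates 2 and 3) and the most from neutrophil markers (25.0 CPM, against 0.1595 and 3.05 CPM), while the 9 endothelial markers were alike (43.3, 46.9 and 46.0 CPM). The part of these cells in the difference was not tested.

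Embryonic globins were measurable mainly at E14.5. Hbb-y, the embryonic epsilon-like chain, had 22, 1140 and 762 counts in ENL WT and 1006, 342 and 10 counts in T1. Hba-x, the embryonic alpha chain, had 4, 148 and 280 counts in ENL WT and 968, 67 and 0 counts in T1. Hbb-bh1 had 0, 1 and 136 counts in ENL WT and 431, 6 and 0 counts in T1. Each library had its own mixture, and T1 replicate 3 had at most 10 counts of any of them, although its Hba-a1 level lay between those of the other 2 T1 libraries.

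The embryonic share of all globin counts expresses this in each library, with 95% Wilson intervals that cover counting error only. In ENL WT it was 24.3% (17.2 to 33.2), 19.2% (18.3 to 20.2) and 8.18% (7.74 to 8.64). In T1 it was 14.1% (13.6 to 14.7), 5.26% (4.79 to 5.77) and 0.0726% (0.0395 to 0.134). In T1 the intervals did not overlap. In ENL WT the interval of replicate 1 contained that of replicate 2, and replicate 3 lay below both. The 2 groups overlapped. Among beta-like genes alone the embryonic share in ENL WT was 53.7%, 45.7% and 15.03%, and among alpha-like genes alone 6.06%, 3.52% and 3.32%. At E18.5 the share was 0 to 0.0380% in sorted ENL WT cells, 0.0118 to 0.0431% in sorted Six2-ENL T1 cells and 0.00240 to 0.0363% in whole kidneys of both lineages. In sorted Foxd1 cells it was 0 of 341 to 906 globin counts in all 8 libraries, which allows a share of up to 0.422 to 1.11% (upper Wilson bound).

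**Figure D3:**
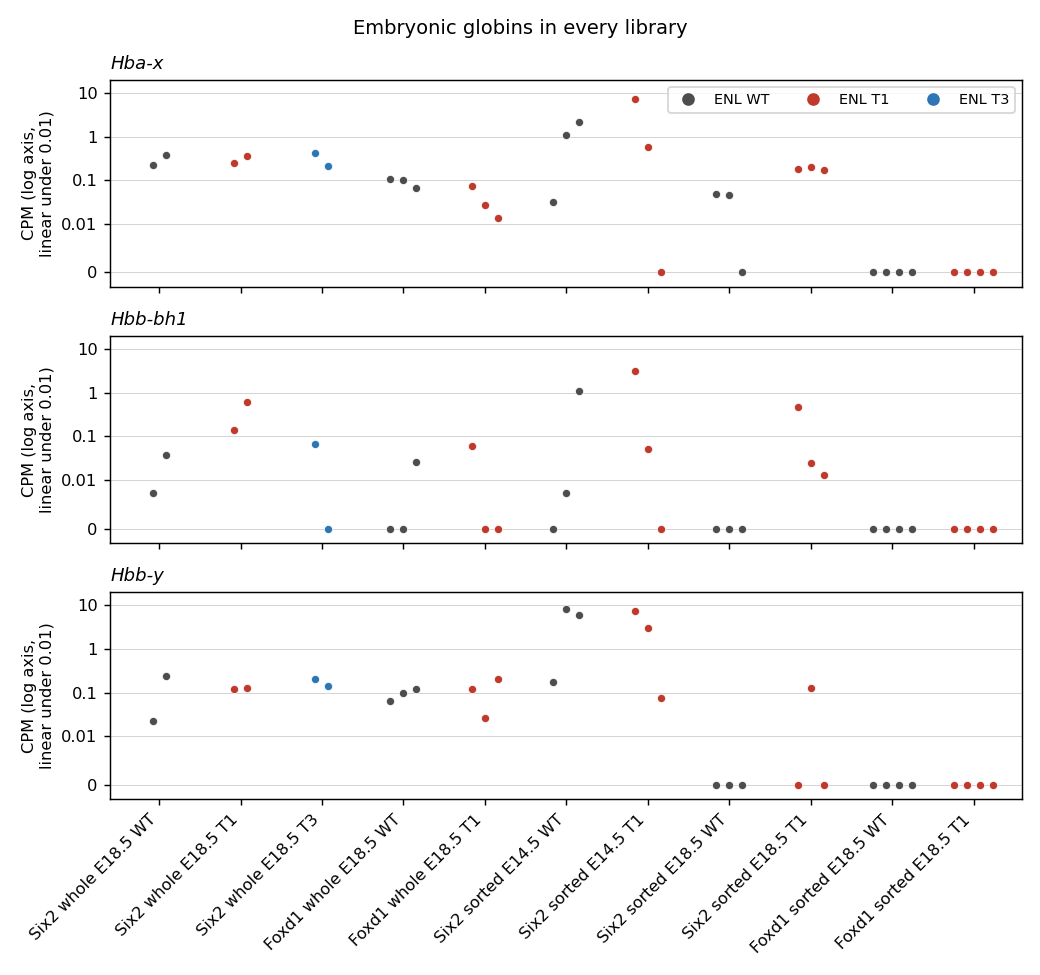
Level of the 3 embryonic globins in every library, in CPM on an axis that is logarithmic above 0.01 and linear below, with 1 point per library, the 11 groups along the horizontal axis and colors for the ENL genotype. The points above 1 CPM all belong to sorted E14.5 cells, where the libraries of each genotype spread over a wide range, and the 8 sorted Foxd1 libraries lie at 0.

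Between E14.5 and E18.5 the share of members called in sorted ENL WT cells was near or below that of all genes. In ENL WT cells, called at an adjusted p under 0.01 and a fold over 2, 2 of 8 members were higher at E18.5, where 24.8% of all genes were, and 1 was lower, where 20.6% were. Hbb-bs was higher by 2.69 (SE 0.801, edgeR adjusted p = 0.00772) and Alas2 by 1.83 (SE 0.550, edgeR adjusted p = 0.00819), and Hbb-y fell to 0 counts in all 3 libraries, at least 123-fold lower against a floor of 3 counts per library (edgeR adjusted p = 0.00263). That bound uses the mean of the E14.5 libraries, in which replicate 1 had 22 Hbb-y counts and the others 1140 and 762. Hba-a1 (1.56, adjusted p = 0.0868), Hbb-bt (1.69, adjusted p = 0.0781), Hba-a2 (-0.27, adjusted p = 0.773), Hba-x (-4.90, adjusted p = 0.0280) and Hbb-bh1 (adjusted p = 0.0963) were not called. Without E14.5 ENL WT replicate 1, the library with few globin counts, Hbb-bs (2.11, edgeR adjusted p = 0.00166) and Hbb-y (edgeR adjusted p = 0.000390) were still called, Hba-x was called too (-5.47, edgeR adjusted p = 0.00942), and Alas2 was not (1.45, edgeR adjusted p = 0.0296). The count went from 3 to 1 without E14.5 ENL WT replicate 2, E18.5 ENL WT replicate 1 or 2, or E18.5 T1 replicate 2 or 3. Cells were released with trypsin at E14.5 and with collagenase II at E18.5, so stage and digestion cannot be told apart.

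In Six2-ENL T1 cells all 4 adult globins and Alas2 were called higher at E18.5, where 24.4% of all genes were, and 1 member was called lower, where 19.8% were. The log2 fold changes were 4.32 (SE 0.864) for Hba-a1, 2.62 (SE 0.809) for Hba-a2, 5.11 (SE 0.872) for Hbb-bs, 4.27 (SE 0.887) for Hbb-bt and 4.00 (SE 0.538) for Alas2, with edgeR adjusted p from 1.01e-05 to 0.00972. Hbb-y fell by 6.31 (SE 1.80, edgeR adjusted p = 0.00745), from 1006, 342 and 10 counts to 0, 10 and 0. Hba-a2 had the lowest log2 fold change of the 4 adult globins in both genotypes, and the ratio of Hba-a1 to Hba-a2 counts rose from 2.86 to 2.99 at E14.5 to 9.13 to 9.80 at E18.5 in T1 without overlap. The ENL WT ratios were 5.89, 3.08 and 2.82 at E14.5, of which the first rests on 53 and 9 counts, and 9.73 to 11.7 at E18.5.

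The difference of the T1 effect between the stages, tested as an interaction over the 12 sorted Six2 libraries, was large in size but not called. It was 2.76 (SE 1.10) for Hba-a1, 2.89 (SE 1.12) for Hba-a2, 2.42 (SE 1.08) for Hbb-bs, 2.58 (SE 1.14) for Hbb-bt and 2.17 (SE 0.741) for Alas2, with edgeR adjusted p from 0.0952 to 0.205. Of 8 members 0 were called, where 8.16% of all genes were, and 5 passed an unadjusted p under 0.05. Without E14.5 ENL WT replicate 1 the same 5 genes were called, with 3.33 for Hba-a1 (edgeR adjusted p = 0.000208), 3.46 for Hba-a2, 2.99 for Hbb-bs, 3.15 for Hbb-bt and 2.54 for Alas2 (edgeR adjusted p = 0.0429). Without E14.5 T1 replicate 1 the count was 1. A higher T1 effect at E18.5 than at E14.5 thus passed the threshold only when the library with few globin counts, or 1 T1 library, was left out, or when no filter on low counts was applied.

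Other heme genes did not share the stage pattern of Alas2. Of the 8 other heme enzymes, 6 were called lower at E18.5 in ENL WT, where 20.6% of all genes were, and 6 in T1, where 19.8% were. In both genotypes 0 were called higher, where 24.8% (ENL WT) and 24.4% (T1) of all genes were. Alad fell by 2.23 (SE 0.0746, edgeR adjusted p = 3.17e-12) in ENL WT, from 79.7 to 90.9 CPM to 15.2 to 18.7 CPM. Hmox1 was higher at E18.5 by 5.11 (SE 0.174, edgeR adjusted p = 3.72e-12) in ENL WT and by 3.32 (SE 0.1605, edgeR adjusted p = 1.30e-10) in T1.

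Sorted Foxd1-lineage cells carried adult globin RNA too, and no member was called between genotypes. Hba-a1 was 55.3, 27.1, 37.9 and 21.4 CPM in ENL WT and 22.3, 30.9, 32.2 and 26.1 CPM in Foxd1-ENL T1. Hbb-bs was 114, 72.7, 90.3 and 63.5 CPM in ENL WT and 45.3, 73.8, 95.3 and 61.8 CPM in T1. Hbb-bt was 81.8, 66.4, 73.5 and 49.6 CPM in ENL WT and 56.1, 73.4, 80.9 and 61.8 CPM in T1. The groups overlapped for each of these genes. Alas2 rested on 2 to 9 counts a library and the 3 embryonic genes on 0.

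The log2 fold changes by edgeR were -0.35 (SE 0.215, adjusted p = 0.351) for Hba-a1, -0.18 (SE 0.274, adjusted p = 0.750) for Hba-a2, -0.30 (SE 0.180, adjusted p = 0.343) for Hbb-bs and 0.01 (SE 0.132, adjusted p = 0.983) for Hbb-bt. Of 4 members tested 0 were called, where 5.83% of all genes were, and 0 passed an unadjusted p under 0.05. In the same libraries 6 of 10 macrophage markers were called higher in T1, where 3.66% of all genes were called higher. The macrophage markers summed to 134 to 357 CPM in ENL WT and 291 to 398 CPM in T1. The globin sum was 139.9 to 260.8 CPM and 129 to 216.3 CPM. The part of macrophages in the globin counts was not tested, and the Six2 and Foxd1 libraries were sequenced separately.

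The T1 effect in sorted E18.5 cells therefore differed between the lineages, as tested by an interaction over 14 libraries. Among the 5 members tested, each adult globin was called higher in Six2 cells, where 7.63% of all genes were. The differences of the log2 fold changes (Six2 minus Foxd1) were 3.92 (SE 0.327, edgeR adjusted p = 2.79e-08) for Hba-a1, 3.86 (SE 0.453, edgeR adjusted p = 2.94e-06) for Hba-a2, 3.97 (SE 0.355, edgeR adjusted p = 7.24e-08) for Hbb-bs and 3.64 (SE 0.308, edgeR adjusted p = 3.31e-08) for Hbb-bt. These calls stood without any 1 of the 14 libraries. Alas2 was called too (3.68, SE 0.544, edgeR adjusted p = 4.93e-05). However, it passed the low-count filter through the Six2-ENL T1 libraries, at 871 to 1200 counts, so that call is set apart from the others. In sorted Foxd1 cells Alas2 had 2 to 9 counts a library and was not tested alone, so its difference rests on the Six2 cells. The lineages were sequenced separately, at different depth and read length, which the interaction cannot separate from lineage.

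**Figure D4:**
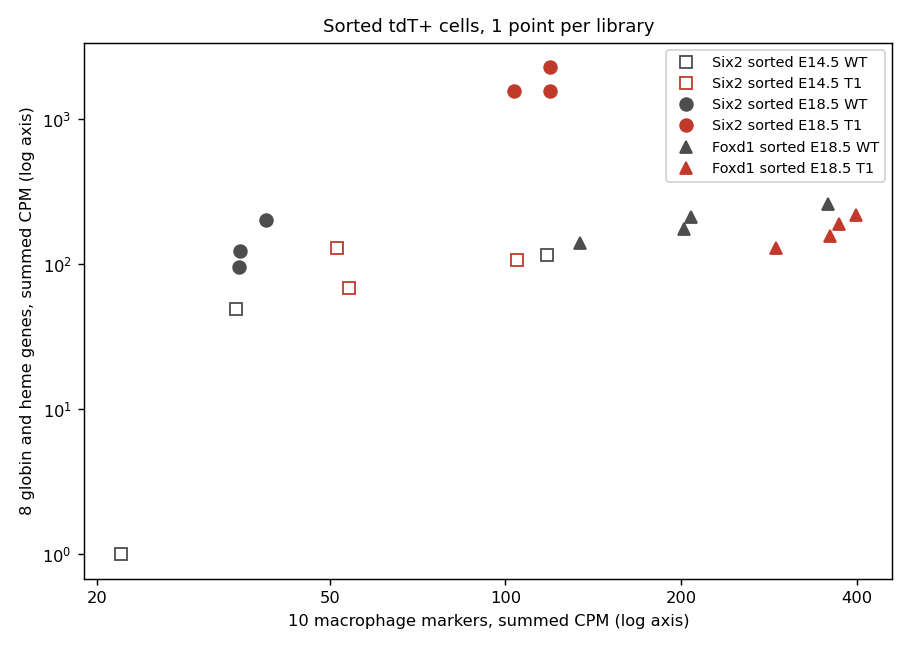
Summed CPM of the 8 genes (vertical log axis) against summed CPM of 10 macrophage markers (horizontal log axis) in each of the 20 sorted libraries, with open squares for Six2 E14.5, filled circles for Six2 E18.5, filled triangles for Foxd1 E18.5 and colors for the ENL genotype. The 3 Six2-ENL T1 libraries at E18.5 lie at 1549 to 2283 CPM of the 8 genes. The 8 Foxd1 libraries lie further right, at 134 to 398 CPM of macrophage markers, with at most 260.8 CPM of the 8 genes. The lineages were sequenced separately, and the part of macrophages was not tested.

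Ratios within the globin family differed between tables. Alpha-like over beta-like counts per kilobase averaged 0.803 ± 0.0548 (SD, n = 2) in whole Six2 ENL WT kidneys and 1.06 ± 0.0178 (SD, n = 3) in whole Foxd1 ENL WT kidneys. In sorted Six2 cells the ratio was 1.39 ± 0.0893 (SD, n = 3) in ENL WT and 1.28 ± 0.0449 (SD, n = 3) in T1 at E14.5, and 0.945 ± 0.114 and 0.867 ± 0.0449 (SD, n = 3 each) at E18.5. In sorted Foxd1 cells it was 0.2495 ± 0.0370 in ENL WT and 0.230 ± 0.0197 in T1 (SD, n = 4 each), below every other library. The 8 sorted Foxd1 libraries ranged from 0.202 to 0.2995, and the lowest of the other 24 libraries was 0.765. Sorted cells of both lineages had been made with the same type of kit but were sequenced separately, at different depth and read length. The cause of the low ratio was not tested.

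The split within the beta pair varied by table and, in sorted Six2 cells, by stage. Hbb-bs over Hbb-bt was 1.65 to 1.75 in whole Six2 ENL WT kidneys and 0.595 to 0.673 in whole Foxd1 ENL WT kidneys, whereas in sorted E18.5 cells it was 1.48 to 1.58 for Six2 and 1.09 to 1.39 for Foxd1 in ENL WT. In sorted Six2-ENL T1 cells at E18.5 it was 1.48 to 1.59. At E14.5 the ratio was 2.17, 0.669 and 0.791 in ENL WT, where the first value rests on 13 and 6 counts, and 0.849, 0.961 and 0.832 in T1. Since many reads of the pair can match both copies, these ratios also depend on how such reads were placed. The pair ratio of Hba-a1 to Hba-a2 was 9.73 to 11.7 in sorted Six2 ENL WT cells at E18.5 and 4.33 to 7.46 in sorted Foxd1 ENL WT cells.

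**Figure D5:**
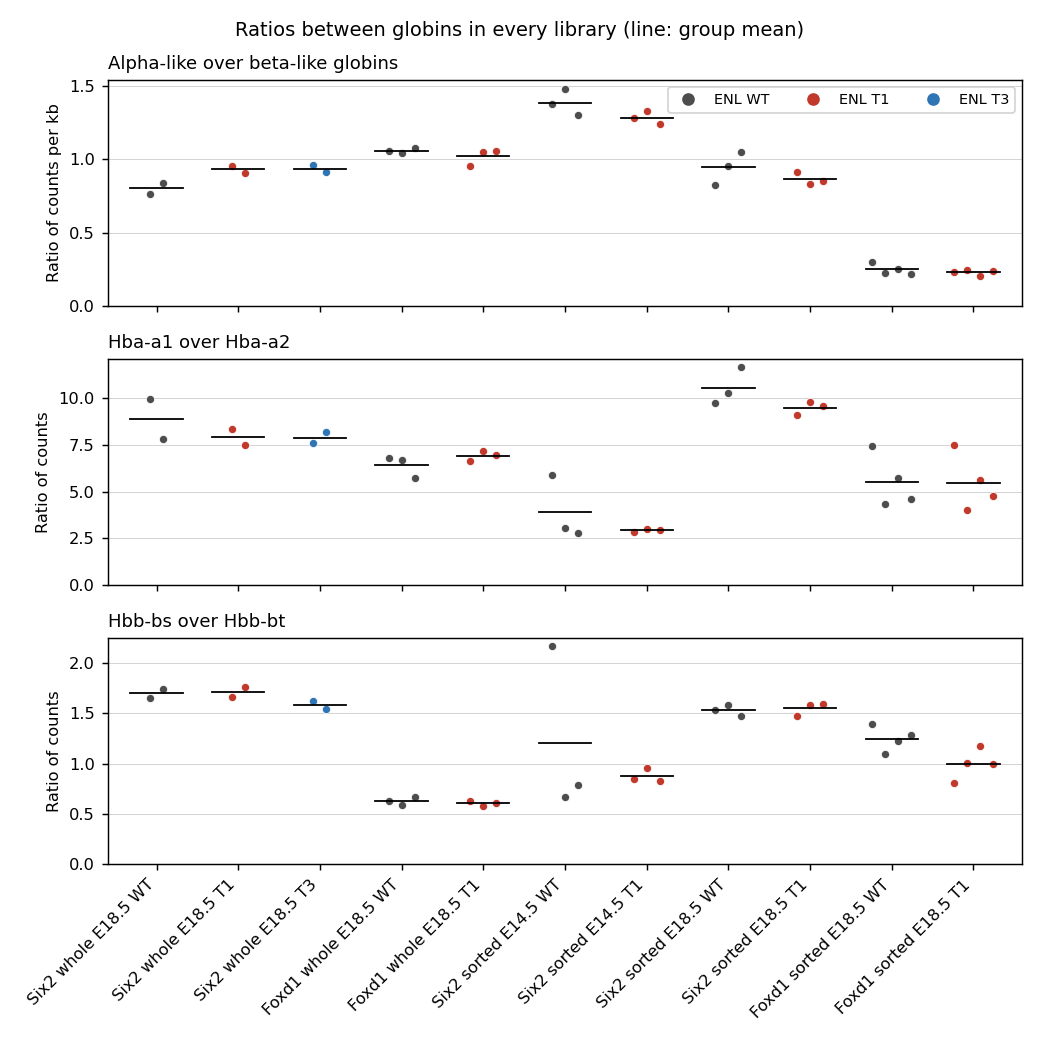
Ratios of globin counts in every library (linear axes from 0), as alpha-like over beta-like counts per kilobase, Hba-a1 over Hba-a2 and Hbb-bs over Hbb-bt, with 1 point per library, the 11 groups along the horizontal axis, colors for the ENL genotype and a line at each group mean. The 8 sorted Foxd1 libraries lie at 0.202 to 0.2995 in the upper panel, and every other library lies at 0.765 or above.

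The genes whose level followed Hbb-bt most closely over the 12 sorted Six2 libraries, among 25222 genes and by Pearson r of log2 CPM, included the other 3 adult globins. Hba-a1 (0.995), Hbb-bs (0.989) and Hba-a2 (0.963) were ranked 1, 2 and 6. The others among the first 10 were Mrc1, the macrophage mannose receptor (0.980), the chemokines Ccl2 (0.971) and Ccl7 (0.967), the RNA sensor Tlr7 (0.948), AC158605.1 (0.943), the scavenger receptor Cd36 (0.943) and the guanylate cyclase Gucy2e (0.942). Alas2 was ranked 85 (0.877), whereas Hba-x (0.102), Hbb-bh1 (0.214) and Hbb-y (-0.31) did not follow it. These libraries share stage, digestion and genotype, so the correlations are a description.

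Over the 8 sorted Foxd1 libraries, among 12717 genes, no globin was among the first 10. These were Surf6 (0.951), Fam219a, Mgat1, Rpap2, Cd93, Dmac2, Mmrn2, Adgrl4, Rac2 and Rasgrp3 (0.925), of which Cd93, Mmrn2 and Adgrl4 are endothelial genes. Hba-a1 was ranked 60 (0.849), Hbb-bs 77 (0.833) and Hba-a2 286 (0.727). Mrc1 and the chemokines were not among the first 10. With only 8 libraries, correlations this high can arise by chance among 12717 genes. The list is a description, and a part of endothelial cells in it was not tested.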

How the data were processed

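Poly(A) RNA was sequenced by the authors from whole kidneys (KAPA stranded kit) and from sorted tdT+ cells (SMART-seq v4 ultra-low input kit) as paired reads of 50 bases for the Six2 and 75 bases for the Foxd1 libraries. The authors aligned reads to mm10 with HISAT2 and deposited HTSeq counts per Ensembl gene, made without strand and with no minimum mapping quality, so that near-identical globin copies could share reads. No per-sample column was left out. GENCODE vM21 named 55450 of 55806 identifiers.

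From these deposited counts, CPM was computed on library totals. Genotype, stage and interaction effects were fitted across all genes of a table with edgeR 4.0.16 in R 4.3.3 (filterByExpr with a minimum count of 10 and total of 15, TMM factors, quasi-likelihood test, Benjamini-Hochberg adjustment). A call needed an adjusted p under 0.05 and a fold over 1.5, for stage under 0.01 and over 2, and for interactions under 0.05. Fits were tested on simulated data. Alternatives included DESeq2 1.42.0, other scalings and filters, a replicate block and leaving out each library. Figures were drawn with matplotlib 3.10.9. Members and gene lists were chosen with earlier results of these data known. All 8 members are named. Genes of a list are named when first or second in it, or when called and among the 3 with the largest change, and a few more are given for context. The 10 genes most like Hbb-bt were ranked by Pearson r of log2 CPM with a prior count of 2. A few genes of these lists are not reported here.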

Additional observations from a re-analysis of the deposited data

Results flagged for a closer look

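In sorted cells at E18.5 the effect of ENL T1 differed between the Six2 and Foxd1 lineages for the 5 members tested, by an interaction term in edgeR's quasi-likelihood test. The difference of the log2 fold changes (Six2 minus Foxd1) was 3.92 for Hba-a1, 3.86 for Hba-a2, 3.97 for Hbb-bs, 3.64 for Hbb-bt and 3.68 for Alas2. Alas2 was too low to be tested in sorted Foxd1 cells alone. It passed the low-count filter through the Six2-ENL T1 libraries, so its difference rests on the Six2 cells. The lineages were sequenced in separate tables, and table and lineage cannot be told apart. No library lay outside its group by Dixon's criterion in the 20 tests made of member levels, their sum and their ratios in groups of 4 libraries, where chance marks about 1 in 20. Only the sorted Foxd1 groups have 4 libraries. No Six2 or whole-kidney group was tested, so the sorted E14.5 ENL WT library with few globin counts was not covered.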

How the results depend on the processing

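The 5 calls in sorted E18.5 Six2 cells and the 5 in the lineage comparison of sorted cells stood in every fit without 1 library (5 to 5), and became 3 with the adult pairs summed, which leaves fewer features and was chosen after the data were seen. In the lineage comparison 1 of the 5 was Alas2, which passed the low-count filter through the Six2-ENL T1 libraries. In whole Six2 kidneys the count of 0 for T1 became 2 with edgeR's exact test, 1 with DESeq2, 4 with no low-count filter and 3 with the 4 libraries alone, and ranged from 0 to 3 without 1 library, and for T3 from 0 to 1. For stage in ENL WT, 3 calls became 1 with library size only and 5 with no filter, and 1 to 4 without 1 library. In T1 the range was 4 to 6. For stage by genotype, 0 became 5 with no filter and ranged from 0 to 5. For lineage by genotype in whole kidneys, 0 became 2 with DESeq2, 3 with no filter and 2 with the replicate block, and ranged from 0 to 2. The cause of these changes was not tested. Same-numbered libraries did not deviate together (correlations from -0.134 to 0.156 over 31 pairs, where groups of 2 libraries give the same value for both pairs). This cannot show whether they shared a litter or a preparation, and the main fits did not pair them. With the replicate block the count was 5 in sorted E18.5 Six2 cells, 2 for stage in ENL WT, 4 for stage in T1 and 5 for lineage in sorted cells. The edgeR exact test was not run for the 3 interactions. The mean embryonic share, in percent, was 0.00866 (beta-like) and 0.0129 (alpha-like) in whole Six2 T3, 38.1 and 4.30 in sorted E14.5 ENL WT, 0 and 0.0422 in sorted E18.5 ENL WT, 0.00839 and 0.00638 in whole Foxd1 ENL WT, and 0.0124 (beta-like) in whole Foxd1 T1. Without division by length, alpha over beta was 0.859, 0.995 and 1.00 in whole Six2 ENL WT, T1 and T3, 1.57 and 1.38 in sorted E14.5 ENL WT and T1, 0.930 in sorted E18.5 T1, and 1.15 and 1.11 in whole Foxd1 ENL WT and T1. Signs turned for uncalled values only: in whole Six2 T1 for Hba-x with library size only (0.0381) and Hbb-y with the block (0.0687), at E14.5 for Hba-x with the block (-0.52), in sorted Foxd1 cells for Hbb-bt with no filter (-0.0160) and over 1 CPM (-0.00295), and for Hba-a2 in the whole-kidney lineage comparison with library size only (0.0255) and over 1 CPM (0.0170). Without 1 library the log2 ranges that crossed 0 were, in whole Six2 T1, -0.35 to 0.40 for Hba-x and -0.97 to 2.40 for Hbb-y. In T3 they were -0.18 to 0.69 for Hba-a1, -0.0942 to 0.88 for Hba-a2, -0.59 to 0.45 for Hba-x, -0.41 to 0.44 for Hbb-bs, -0.27 to 0.50 for Hbb-bt, -4.76 to 1.94 for Hbb-bh1, -0.49 to 2.88 for Hbb-y and -0.30 to 0.50 for Alas2. At E14.5 they were -1.98 to 2.19 for Hba-x and -1.71 to 0.17 for Hbb-y, and in sorted Foxd1 cells -0.38 to 0.00805 for Hba-a2 and -0.10 to 0.10 for Hbb-bt. For stage they were -0.85 to 0.84 for Hba-a2 in ENL WT and -5.68 to 2.82 for Hbb-bh1 in T1, and for stage by genotype -0.50 to 10.99 for Hbb-bh1. For lineage by genotype in whole kidneys they were -0.31 to 0.32 for Hba-a2, -0.21 to 6.92 for Hbb-bh1 and -1.27 to 2.12 for Hbb-y. Depth limits Alas2 and the embryonic genes in sorted Foxd1 cells, where 3 counts are up to 1.17 CPM.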

Other observations

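Genes of other globins and of red cell products also differed in some groups, by the edgeR test used above. Cygb, a globin made outside red cells, was called higher in Six2-ENL T1 sorted cells at E14.5 (log2 fold change 1.39) and at E18.5 (0.72), and lower in Foxd1-ENL T1 in sorted cells (-1.08) and in whole kidneys (-0.76). Hbq1b, a gene of the alpha-globin cluster, had 1 to 3 counts in the whole Six2 ENL WT kidneys, 8 to 13 in T1 (2.38, adjusted p = 0.0999, not called) and 21 to 25 in T3 (3.78, adjusted p = 0.0120, called). Ngb, neuroglobin, was called lower in whole Foxd1-ENL T1 kidneys (-2.54), at 0 to 8 counts against 13 to 36, and Adgb higher in sorted Six2-ENL T1 cells at E18.5 (2.55). Hbb-bh2 had 0 counts in every library. In whole Foxd1 kidneys Slc4a1, the band 3 anion exchanger shared by red cells and intercalated cells, was called lower (-1.01, adjusted p = 8.84e-06), as was Kel (-1.49, adjusted p = 0.000720), while 0 of the 5 members tested were. Tfrc, the transferrin receptor, was called lower in whole kidneys of Six2-ENL T1 (-1.07), Six2-ENL T3 (-0.84) and Foxd1-ENL T1 (-0.76). The comparisons of Six2-ENL T1 and T3 share their control libraries.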
